A study of Mus musculus with 6 samples.

Results

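Inflammatory cytokine and acute-phase genes were followed in the subcutaneous white adipose tissue of mice that lack Nampt in adipocytes. The group held 10 genes, chosen by symbol: the cytokines Tnf, Il6, Il1b and Il18, the receptor antagonist Il1rn, the receptor Tlr4, the feedback inhibitors Nfkbia and Socs3, and the acute-phase genes Saa3 and Lcn2. Each matched 1 of the 40428 features of the count table. RNA was sequenced from whole tissue of 3 ANKO mice, in which Cre recombinase under the adiponectin promoter had deleted floxed Nampt, and of 3 control mice that carried the floxed alleles. All 6 mice were C57BL/6J, on regular chow at room temperature, and the labels give no age. Because the deletion acts in adipocytes and the tissue also holds immune, stromal, vascular and epithelial cells, a count cannot be assigned to one cell type.

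These genes form the core of the innate inflammatory response. TLR4 binds bacterial lipopolysaccharide and, like the receptors of TNF and of IL-1, activates NF-kB, which is held in the cytoplasm by the inhibitor IkB-alpha, the product of Nfkbia. IL-6 signals through STAT3, whose target SOCS3 shuts the pathway off. In fat, TNF and IL-1 beta interfere with insulin action, and serum amyloid A3 and lipocalin-2 are secreted during inflammation.

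The bases that precede the annotated start sites are shown for 4 members that span the range of levels described below: the most abundant one, the one without a single count, the one whose groups did not overlap, and an acute-phase gene with almost no counts. The 250 bases before the start are from RefSeq on GRCm38.p6, 5′ to 3′ on the gene's strand, and capitals mark each match to a consensus for NF-kB, to TTCNNNGAA (bound by STAT proteins), to TTGCNNAA (C/EBP) or to TGANTCA (AP-1), searched on both strands.
Nfkbia, chr12:55492648-55492897, minus strand: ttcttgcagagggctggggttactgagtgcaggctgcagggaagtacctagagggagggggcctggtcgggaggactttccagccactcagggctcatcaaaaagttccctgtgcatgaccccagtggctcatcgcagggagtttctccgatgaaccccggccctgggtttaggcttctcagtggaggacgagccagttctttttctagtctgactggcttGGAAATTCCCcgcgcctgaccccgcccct
Il6, chr5:30012864-30013113, plus strand: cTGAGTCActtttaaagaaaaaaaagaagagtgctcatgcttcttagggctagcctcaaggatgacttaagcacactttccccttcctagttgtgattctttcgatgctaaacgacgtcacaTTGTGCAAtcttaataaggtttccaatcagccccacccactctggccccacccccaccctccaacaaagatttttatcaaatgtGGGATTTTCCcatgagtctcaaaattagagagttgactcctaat
Il1rn, chr2:24336610-24336859, plus strand: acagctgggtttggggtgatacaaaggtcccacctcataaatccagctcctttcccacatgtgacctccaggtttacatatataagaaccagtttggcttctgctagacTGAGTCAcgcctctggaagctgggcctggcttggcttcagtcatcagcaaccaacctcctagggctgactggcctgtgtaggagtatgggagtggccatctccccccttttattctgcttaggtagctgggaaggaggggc
Saa3, chr7:46715677-46715926, minus strand: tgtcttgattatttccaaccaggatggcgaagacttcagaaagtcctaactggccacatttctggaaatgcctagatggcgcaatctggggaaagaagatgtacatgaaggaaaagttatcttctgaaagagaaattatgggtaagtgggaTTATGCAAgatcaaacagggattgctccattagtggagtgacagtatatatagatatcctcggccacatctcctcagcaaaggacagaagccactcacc

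Of the 10 genes, 9 had an entry in the promoter table, and Tlr4 had none. The NF-kB consensus occurred before Nfkbia, starting at position -29 from the start site, and before Il6, at -44, while 7.25% of all 32851 windows of this length held a match. TTGCNNAA occurred before Il6, Saa3 and Lcn2 (9.56% of all windows), TGANTCA before Il6 and before 1 of the 3 start sites of Il1rn (6.75%), and TTCNNNGAA before Socs3 (7.02%). No 2 of these matches overlapped. A match describes the letters and is not evidence of binding.

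Library totals ranged from 19748962 to 23860596 counts. Nampt, the targeted gene, stood at 47.0 to 50.2 CPM in ANKO and 83.6 to 93.0 CPM in control libraries (CPM, counts scaled to library size after TMM normalisation). ANKO over control, this was a log2 fold change of -0.85 (edgeR quasi-likelihood test, adjusted p = 0.00416). Markers of adipocytes were abundant in every library, at a summed 6597 to 10244 CPM in ANKO and 15244 to 22908 CPM in control tissue over 11 genes. The libraries differed in RNA of neighbouring tissues, since 12 skeletal muscle markers summed to 87.0 to 17124 CPM in ANKO and 1461 to 8916 CPM in control tissue. Markers of mammary epithelium, 12 genes, summed to 809 to 1258 CPM in ANKO and 265 to 1896 CPM in control tissue, with control 3 lowest.

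Between ANKO and control fat no inflammatory gene of the 8 that could be tested passed the edgeR test, and Il1rn alone had groups that did not overlap. Of the 10, 8 passed the low-count filter and were tested, and 0 had an adjusted p under 0.05 with edgeR, where 1.59% of the 19272 features tested did (0.488% higher and 1.1% lower). At an unadjusted p under 0.05 there was 1, Il1rn, against 12.9% of all features. DESeq2 called 1 of these genes, Il1rn, which edgeR did not, and limma-voom called 0. Over all features, DESeq2 called 841, limma-voom 230 and edgeR 306. The log2 fold change was positive in 4 of the 8 and negative in 4, and the median over the 8 was 0.08, beside 0.00068 over all features. Il1rn was the 1 gene whose 3 ANKO values all lay on one side of the 3 control values, where 19.4% of all features had such groups and 9.19% had them with ANKO above. The tissue was sequenced in bulk, so fewer cells of a type and less RNA per cell cannot be told apart.

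**Figure D1:**
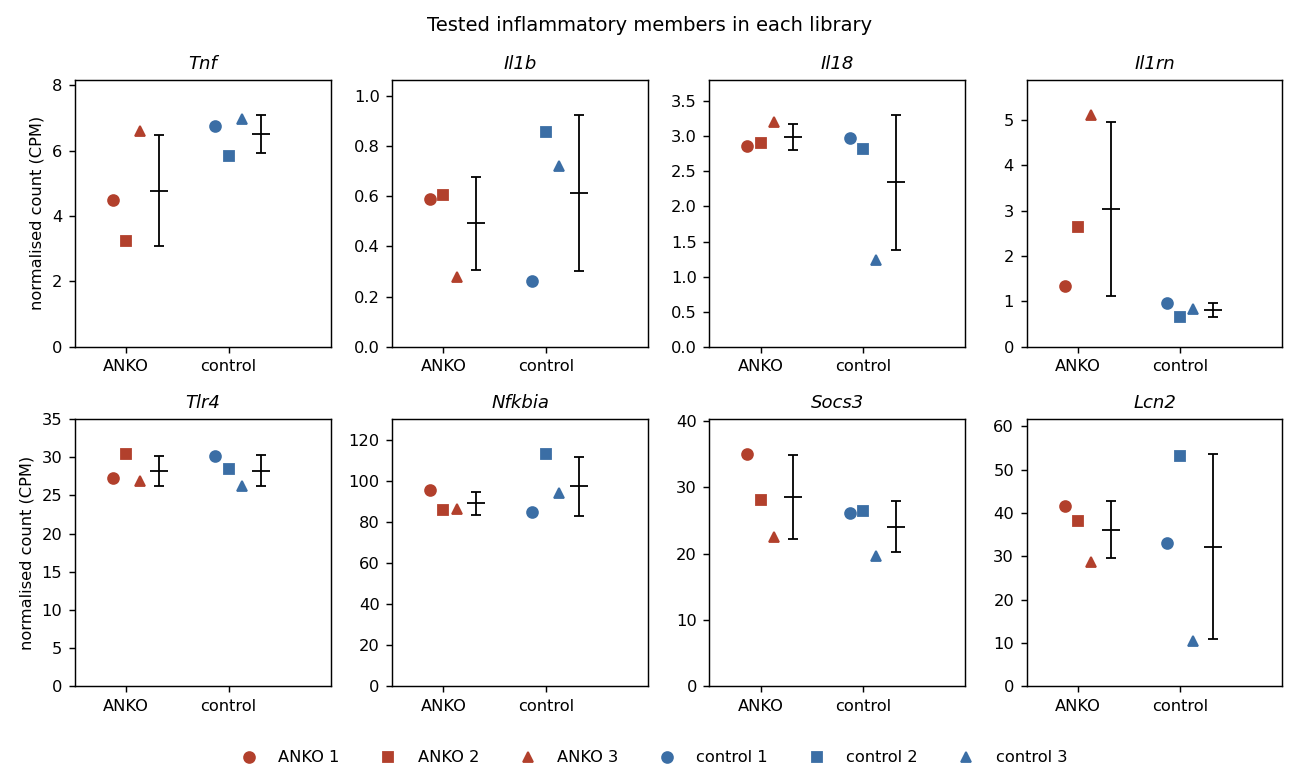
Normalised counts (CPM, linear axes from 0) of the 8 tested genes in each library, with ANKO left and control right in each panel; black bars give the mean and SD of 3 mice. Only in the Il1rn panel are the ANKO and control points fully apart, and control 3 is the lowest point for Il18, Lcn2, Socs3 and Tlr4.

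Levels were compared between genes per kilobase of merged exon. Nfkbia was the most abundant, at 53.2 to 59.3 CPM per kilobase in ANKO and 52.7 to 70.3 in control libraries, above every other member in each. Lcn2 came next by its mean, at 11.0 to 15.9 CPM per kilobase in ANKO and 3.97 to 20.3 in control libraries. Its range overlapped that of Socs3 in both groups and those of Tlr4 and Tnf in control tissue. Socs3 lay at 7.80 to 12.1 CPM per kilobase in ANKO and 6.77 to 9.13 in control libraries. Tlr4 lay at 4.84 to 5.48 CPM per kilobase in ANKO and 4.71 to 5.43 in control libraries, below Socs3 in each group. Tnf and Il18 overlapped each other in ANKO, at 1.98 to 4.03 and 2.77 to 3.11 CPM per kilobase, and not in control tissue, at 3.57 to 4.24 and 1.20 to 2.89. Il1rn and Il1b were lower still. Il1rn lay at 0.243 to 0.923 CPM per kilobase in ANKO and 0.118 to 0.174 in control libraries, and Il1b at 0.146 to 0.318 in ANKO and 0.138 to 0.449 in control libraries, so the pair could not be ordered. Saa3 reached at most 0.178 CPM per kilobase in ANKO and 0.0387 in control libraries, and Il6 was at 0.

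Among the ligands, Tnf encodes tumour necrosis factor, made mainly by macrophages. It stood at 4.50, 3.25 and 6.60 CPM in ANKO 1, 2 and 3, against 6.74, 5.85 and 6.96 CPM in control 1, 2 and 3. ANKO 1 and ANKO 2 lay below every control and ANKO 3 lay among them. This gave a log2 fold change of -0.45 (SE 0.266, edgeR adjusted p = 0.556), and the 95% interval ran from 0.479 to 1.12 times the control level. Single libraries moved it, to -0.23 without ANKO 2 and -0.75 without ANKO 3. The counts behind these values were 75 to 142 in ANKO and 116 to 154 in control libraries.

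Il1b encodes interleukin-1 beta, which is made as a precursor and cleaved by caspase-1. It was near the limit of detection, with 14, 14 and 6 counts in ANKO 1, 2 and 3 and 6, 17 and 14 counts in control 1, 2 and 3. All ANKO values lay within the range of the controls, at 0.279 to 0.606 CPM in ANKO and 0.263 to 0.857 CPM in control tissue. A log2 fold change of -0.30 (SE 0.581, adjusted p = 0.898) had an interval of 0.321 to 2.06 times the control level, so at this depth neither a 2-fold rise nor a fall to less than 0.5 of the control level could be told from no difference. In the GENCODE M21 annotation, 25 of the 1907 exonic bases of Il1b, or 1.31%, also belong to the antisense gene Il1bos, and the strand setting of the counting is not given in the sources used here. Il1bos itself had 0 to 4 counts in ANKO and 4 to 12 in control libraries.

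Il18, a cytokine of the same family that epithelial cells and macrophages store as a precursor, had 2.86, 2.90 and 3.21 CPM in ANKO 1, 2 and 3. The control values were 2.98, 2.82 and 1.24 CPM in control 1, 2 and 3. Control 3 was the low library, and the other 2 controls lay at the ANKO level. On the log2 scale the difference was 0.34 (SE 0.341, adjusted p = 0.763), with an interval of 0.736 to 2.19 times the control level, 0.05 without control 3 and 0.56 without control 1. No exonic base of Il18 was shared with Bco2 or Tex12, the genes on the opposite strand that its span crosses.

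Il6 (chromosome 5, 30013114 to 30019981, plus strand), which encodes interleukin-6, was listed at 0 in all 6 libraries. Over the 68016072 counts of the 3 ANKO libraries and the 62641320 of the 3 control libraries, a count of 0 allows up to 0.0441 and 0.0479 CPM (3 counts over each group; counting error only). No other annotated gene overlapped it. Its own promoter sequence, shown above, held matches to 3 of the 4 consensus sequences searched, the largest number among the 9 members with an entry.

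Il1rn (chromosome 2, 24336853 to 24351494, plus strand) encodes the interleukin-1 receptor antagonist, which occupies the IL-1 receptor without signalling. It had 1.34, 2.64 and 5.11 CPM in ANKO 1, 2 and 3, against 0.963, 0.655 and 0.825 CPM in control 1, 2 and 3. Every ANKO library lay above every control, and the ANKO libraries also differed among themselves far more than the controls did, with an SD of 1.91 CPM around a mean of 3.03 in ANKO and 0.154 around 0.814 in control (n = 3 each). The counts were 32, 61 and 110 in ANKO and 22, 13 and 16 in control libraries. Its log2 fold change was 1.88 (SE 0.501, unadjusted p = 0.00557), with an interval of 1.65 to 8.20 times the control level, and the adjusted p was 0.139 over all features. Over the 9 alternatives that kept all libraries the adjusted p ran from 0.0142 with DESeq2 to 0.331 with limma-voom. Without ANKO 3 the log2 fold change was 1.28 and the adjusted p 0.348. In all, 773 features had a smaller p. Il1b, a ligand that the antagonist blocks, was near the limit of detection. ANKO 3, the library with the most Il1rn, had 6 counts of Il1b, as did control 1. The 3 annotated start sites of Il1rn give isoforms that a count per gene does not separate.

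Summed macrophage markers, like Il1rn, were higher in every ANKO library than in any control. Over 18 markers the summed level was 1379, 1524 and 1741 CPM in ANKO 1, 2 and 3, against 1088, 1139 and 943 CPM in control 1, 2 and 3, with none of the 18 at 0. The order of the ANKO libraries was the same for both measures, while the controls were not in the same order. Skeletal muscle markers ran in the opposite order over the ANKO libraries, at a summed 17124, 2980.5 and 87.0 CPM in ANKO 1, 2 and 3. With that sum in the model, also added after the data were seen, the log2 fold change of Il1rn was 1.40 (adjusted p = 0.210). Of the 18 macrophage markers tested, 4 rose and 0 fell, where 0.488% of all features rose and 1.1% fell. Among the 4 were Gpnmb, a glycoprotein of lipid-laden macrophages (log2 fold change 3.27, edgeR adjusted p = 0.0285), Lgals3 or galectin-3 (1.59, adjusted p = 0.0396) and Adgre1, the F4/80 antigen (1.00, adjusted p = 0.0119). The calls of Gpnmb and Lgals3 each held after removal of just 1 of the 6 libraries (highest adjusted p = 0.133 and 0.143), both were lost with no low-count filter (0.0738 and 0.0884), and that of Adgre1 was lost without control 2 (adjusted p = 0.0544). The 13 neutrophil and monocyte markers, other cells that make Il1rn, summed to 43.7 to 60.9 CPM in ANKO and 47.5 to 55.2 CPM in control tissue, with none at 0 over all libraries. The part of macrophages and neutrophils in the Il1rn values was not tested.

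**Figure D2:**
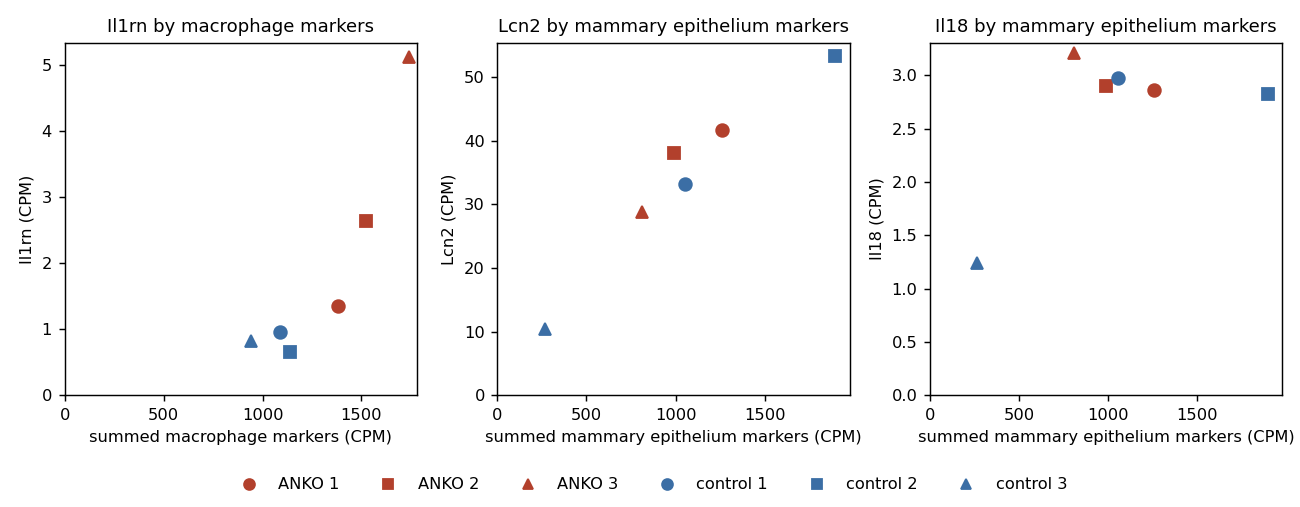
Each point is 1 library: Il1rn (CPM) against the summed macrophage markers (CPM), and Lcn2 and Il18 (CPM) against the summed mammary epithelium markers (CPM), on linear axes from 0. ANKO 3 is highest for Il1rn and macrophage markers, and control 3 is lowest for Lcn2, Il18 and mammary markers. Control 2 is highest for Lcn2 and mammary markers, while its Il18 lies below every ANKO library.

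The receptor Tlr4, expressed by macrophages and by adipocytes, overlapped between the groups. It stood at 27.2, 30.4 and 26.9 CPM in ANKO 1, 2 and 3, against 30.2, 28.4 and 26.2 CPM in control 1, 2 and 3. ANKO over control, the log2 value was -0.0036 (SE 0.102, adjusted p = 0.994), and the interval of 0.848 to 1.17 times the control level was the narrowest among the members.

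The feedback inhibitors also overlapped between groups. Nfkbia, a direct NF-kB target and an inhibitor of it, had 95.5, 85.7 and 86.1 CPM in ANKO 1, 2 and 3, against 84.8, 113 and 94.0 CPM in control 1, 2 and 3. Control 2 was highest and control 1 lowest. Its log2 fold change of -0.13 (SE 0.115, adjusted p = 0.736) had an interval of 0.761 to 1.10 times the control level, and became -0.0054 without control 2 and -0.22 without control 1. Socs3, induced by STAT3, had 35.0, 28.0 and 22.5 CPM in ANKO 1, 2 and 3 and 26.1, 26.4 and 19.6 CPM in control 1, 2 and 3. ANKO 1 and ANKO 2 lay above every control and ANKO 3 did not. For Socs3 a log2 fold change of 0.25 (SE 0.185, adjusted p = 0.663) had an interval of 0.883 to 1.60 times the control level. It was 0.091 without ANKO 1, 0.13 without control 3 and 0.39 without ANKO 3.

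Of the acute-phase members, Lcn2 encodes lipocalin-2, which binds bacterial siderophores and is secreted by adipocytes, neutrophils and epithelia. It had 41.6, 38.1 and 28.8 CPM in ANKO 1, 2 and 3, against 33.1, 53.2 and 10.4 CPM in control 1, 2 and 3. Controls held both the highest and the lowest library. Between the groups the log2 difference was 0.17 (SE 0.589, adjusted p = 0.952), with an interval of 0.393 to 3.20 times the control level, the widest among the members on the log2 scale. Single libraries set the direction, with a log2 fold change of -0.24 without control 3 and 0.73 without control 2.

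Mammary epithelium markers moved with Lcn2 across libraries of both groups. Their sum was 1258, 989 and 809 CPM in ANKO 1, 2 and 3 and 1054, 1896 and 265 CPM in control 1, 2 and 3. Control 2 was highest and control 3 lowest for both measures, and the 6 libraries were in the same order except that ANKO 2 and control 1 changed places. An adjustment for this sum was added once the data had been seen. With it, the log2 fold change of Lcn2 was 0.18 (edgeR unadjusted p = 0.0879, adjusted p = 0.451). Without it, the value was 0.17 (unadjusted p = 0.790, adjusted p = 0.952). The part of mammary epithelium in the Lcn2 values was not tested. Of the 10 mammary markers tested, 0 passed the edgeR test, 0 had an unadjusted p under 0.05, and DESeq2 and limma-voom called 0.

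Saa3 encodes serum amyloid A3, the form made outside the liver. It had 1, 0 and 10 counts in ANKO 1, 2 and 3 and 0, 2 and 0 counts in control 1, 2 and 3, and it did not pass the low-count filter. Most of the counts were from ANKO 3, the library that was also highest for Il1rn. Without a low-count filter the adjusted p was 0.755. Saa3 belongs to a family of similar genes, and reads shared with them are uncertain.

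**Figure D3:**
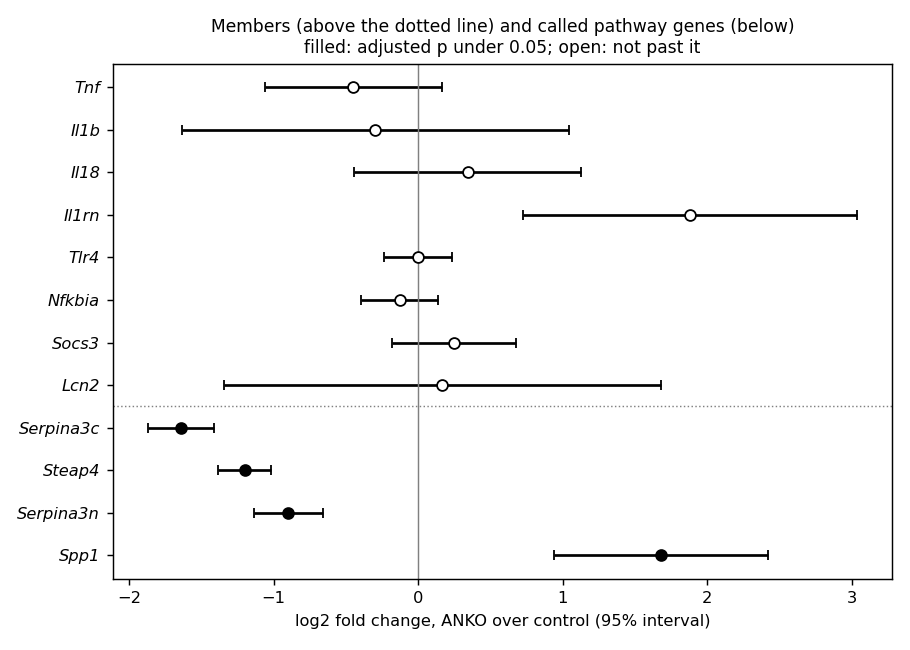
Log2 fold change of ANKO over control with its 95% interval for the 8 tested members, above the dotted line, and for the 4 genes of the other pathway lists past an adjusted p of 0.05, below it (filled points). The interval of Il1rn, 0.73 to 3.04, lies above 0 although its adjusted p is 0.139, and the other 7 members' intervals span 0.

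The other genes of the same pathways, 172 in 6 lists, were read from the same fit. Of the 153 tested, 1 rose and 3 fell, or 2.61% beside 1.59% of all features. The lists were chosen with earlier results of these data known, so this comparison of shares is descriptive only. The 36 genes of IL-1 and TLR signalling had 0 calls and a median log2 fold change of 0.05. The smallest p among them was that of Il1rl1, the receptor of interleukin-33 (8.93 ± 0.758 CPM in ANKO and 6.22 ± 0.198 CPM in control, SD, n = 3 each; adjusted p = 0.167). The 23 genes of TNF receptor signalling also had 0 calls and a median of -0.02, with the smallest p for Tnfaip2 (35.9 ± 1.84 CPM in ANKO and 27.5 ± 1.20 CPM in control, adjusted p = 0.0941; 0.0403 with DESeq2). Among the 19 NF-kB subunits and regulators there were 0 calls and a median of -0.08, and the smallest p was that of Zfp36, an RNA-binding protein that destabilises cytokine transcripts (83.8 ± 1.11 CPM in ANKO and 96.4 ± 6.79 CPM in control, adjusted p = 0.328). In the IL-6 family and JAK-STAT3 list 0 of 25 passed, the median was 0.01, and the smallest p was that of Socs2, a suppressor of growth hormone signalling (22.9 ± 3.11 CPM in ANKO and 37.0 ± 6.22 CPM in control, adjusted p = 0.0771; 0.00517 with DESeq2, 0.0231 with no low-count filter and 0.0298 with the mammary covariate). At an unadjusted p under 0.05 these 4 lists had 3, 5, 2 and 3 genes, where 12.9% of all features passed that threshold. DESeq2 called 0, 1, 0 and 1 gene in these lists, and limma-voom called 0 in each. Over all features, DESeq2 called 841 and limma-voom 230.

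**Figure D4:**
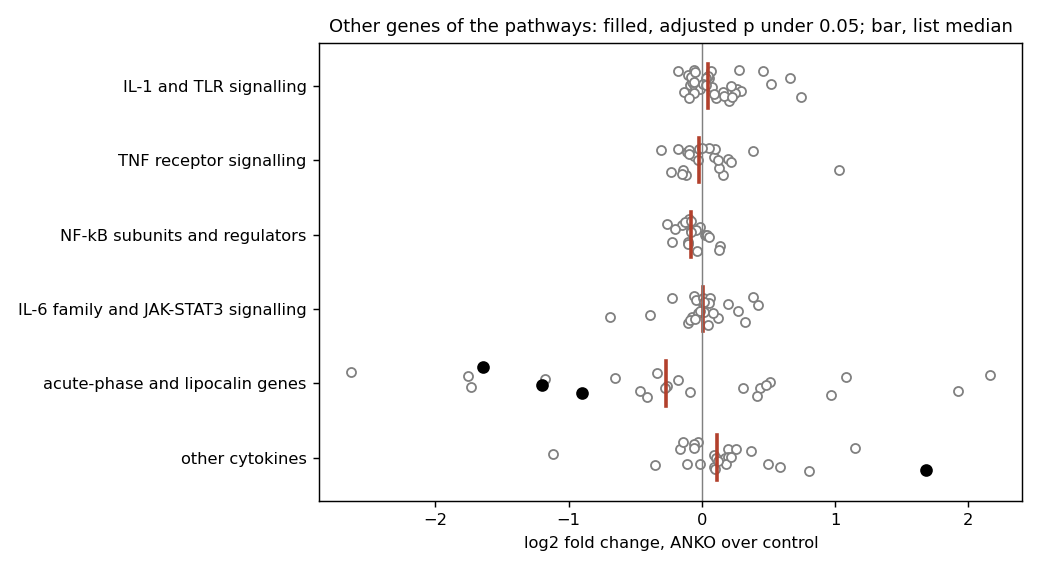
Log2 fold change of ANKO over control for each tested gene of the 6 pathway lists, with red bars at the list medians and filled points for adjusted p under 0.05. The 4 signalling lists have medians of -0.08 to 0.05 with single genes from -0.69 to 1.03. The list of acute-phase and lipocalin genes runs from -2.63 to 2.17.

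Of the 4 calls, 3 lay in the list of acute-phase and lipocalin genes, where 3 of 24 tested genes fell and 0 rose. Over all features 1.1% fell and 0.488% rose. The median of this list was -0.27 on the log2 scale, and DESeq2 called 8 genes and limma-voom 5, each lower in ANKO. At an unadjusted edgeR p under 0.05 there were 10 genes, 9 lower and 1 higher in ANKO, where 12.9% of all features passed. Serpina3c, a serine protease inhibitor of the antichymotrypsin family, had 16.8, 16.5 and 17.7 CPM in ANKO 1, 2 and 3 and 47.7, 56.3 and 55.1 CPM in control 1, 2 and 3. Its ANKO level was 0.321 times the control level (adjusted p = 0.000869), a fall by 1.64 on the log2 scale with an SE of 0.0992. Steap4, a metalloreductase of adipocytes that inflammatory cytokines induce, had 73.0, 75.2 and 75.0 CPM in ANKO and 161, 182 and 170 CPM in control libraries (log2 fold change -1.20, SE 0.0799, adjusted p = 0.00146). Serpina3n, a related inhibitor, had 30.6, 31.1 and 34.2 CPM in ANKO and 58.6, 66.6 and 53.7 CPM in control libraries (log2 fold change -0.90, SE 0.103, adjusted p = 0.00837). The groups were far apart in each of these, and all 3 calls held whichever library was removed (highest adjusted p = 0.0371). Serpina3c and Serpina3n lie in a cluster of similar genes on chromosome 12, so reads shared between copies are uncertain. Adipocyte markers moved the same way: 4 of 11 fell, beside 1.1% of all features, led by Cfd, Retn and Adipoq. Their median log2 fold change was -0.82, and none was at 0. The call of Adipoq was lost without ANKO 3, control 2 or control 3 (adjusted p = 0.0728, 0.0689 and 0.0528). The part of adipocyte content in the values of the acute-phase and lipocalin list was not tested.

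In the list of other cytokines 1 of 26 tested genes rose and 0 fell, and the list's median was 0.12 on the log2 scale. This was Spp1, which encodes osteopontin, at 3.24, 4.03 and 2.93 CPM in ANKO 1, 2 and 3 and 0.876, 0.806 and 1.49 CPM in control 1, 2 and 3 (log2 fold change 1.68, SE 0.321, adjusted p = 0.0499). The call held after removal of just 1 of the 6 libraries, control 3, and its adjusted p reached 0.156 when ANKO 2 was removed. Like Il1rn it stood higher in all 3 ANKO libraries, though its highest library was ANKO 2 and not ANKO 3. At an unadjusted edgeR p under 0.05 the list had 5 genes, where 12.9% of all features passed. DESeq2 called 3 genes of the list, each higher in ANKO, and limma-voom called 0. Over all features edgeR called 0.488% higher.

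**Figure D5:**
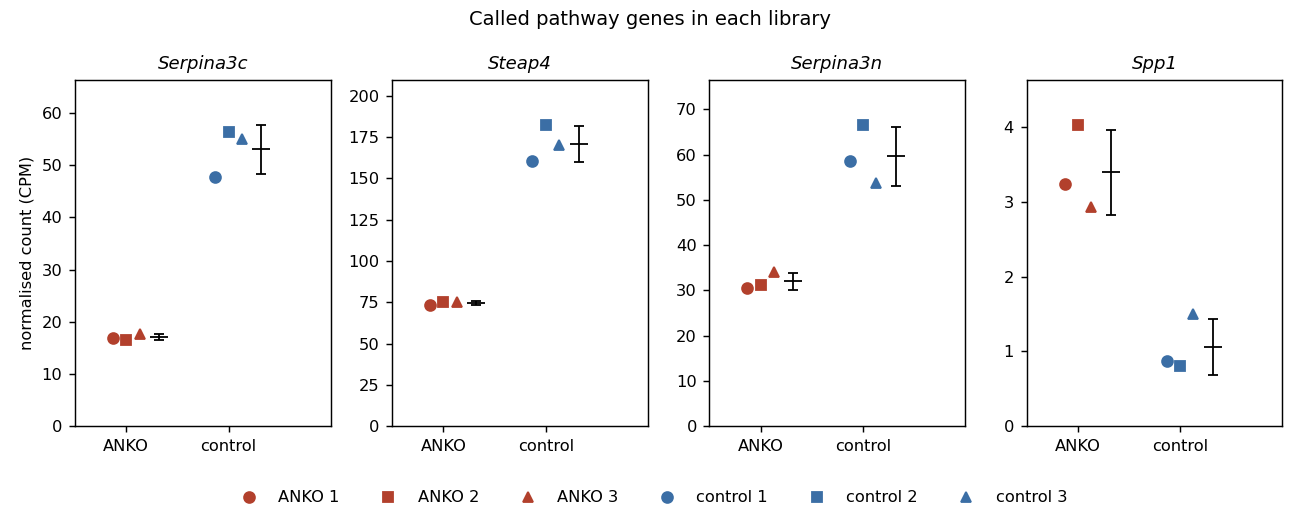
Normalised counts (CPM, linear axes from 0) of the 4 called pathway genes in each library, ANKO left and control right, with the mean and SD of 3 mice in black. Serpina3c, Steap4 and Serpina3n lie lower in all ANKO libraries with little spread, and Spp1 lies higher in them.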

How the data were processed

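RNA of whole subcutaneous fat was sequenced after ribosomal depletion, per the labels' protocols. The deposited values are raw read counts per gene symbol, 1 column per mouse, made with STAR 2.0.4b, Subread and featureCounts 1.45 on GRCm38, per the submitters' processing notes. The sources used here do not give the annotation release or the strand setting. Groups came from the sample titles. Of 40757 lines, 329 exact repeats were dropped, and symbols with several different lines (105) were kept as separate features, which left Clcf1 unmatched.

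Features were kept by filterByExpr (minimum count 10, minimum total 15), scaled by TMM and tested with edgeR 4.0.16 (quasi-likelihood F test, robust) in R 4.3.3. P-values were adjusted by Benjamini and Hochberg's method over all 19272 features tested, with a threshold of 0.05. Dividing the log2 fold change by the root of F gave its standard error, and 95% intervals use the t distribution with the fit's degrees of freedom. Alternatives used DESeq2 1.42.0 and limma 3.58.1 among others. Gene positions and merged exon lengths are from GENCODE M21 on GRCm38. The steps were tested on simulated counts.

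The members and lists were chosen with earlier results of these data known. All members were named, and from each pathway list the called genes or, with none, the gene with the smallest p. From marker lists up to 3 called genes were named. The labels name no litter or batch, and p-values weigh the difference between groups against the spread between these samples. Depth limits precision, and floors cover counting error only.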

Additional observations from a re-analysis of the deposited data

How the results depend on the processing

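The count of members past the threshold was 0 with edgeR, limma-voom, RLE and upper-quartile scaling, both other filters, the replicate block, both covariates and each left-out library, and 1 with DESeq2 (Il1rn). Tlr4, at a log2 fold change of -0.0036, took the other sign with RLE scaling (0.0051), DESeq2 (0.0040), no low-count filter (0.0022) and the muscle covariate (0.0014), and lay between -0.062 and 0.047 over the left-out libraries. Il1b and Lcn2 took the other sign in 1 such fit each, within -0.67 to 0.020 and -0.24 to 0.73. The 4 calls in the pathway lists became 13 with DESeq2, 8 with no low-count filter and 7 with the mammary covariate, and 3 to 5 over the left-out libraries. Over all features the 306 calls (94 higher, 212 lower) became 841 (364 and 477) with DESeq2, 464 (167 higher) with no low-count filter, 160 (49 and 111) with the muscle covariate, and 75 to 256 (20 to 107 higher, 55 to 221 lower) over the left-out libraries. The cause of these changes was not tested. With the replicate block 62 were higher, and 207 called in all. Same-numbered libraries share only a number: their deviations from the group means correlated at 0.0746, -0.0333 and -0.0435, and not every library correlated best with its own number. The block ended the calls of Spp1 (adjusted p = 0.122) and Lgals3 (0.159) among the named genes, and the mammary covariate that of Lgals3 (0.0710). Spp1 was also not called with limma-voom, at least 1 CPM in 3 libraries or the muscle covariate (adjusted p = 0.0655, 0.0508 and 0.086). Depth limits Il1b, Saa3 and Il6 most. Both covariates were chosen after seeing the data.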

Other observations

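Among the other genes of the acute-phase and lipocalin list, 4 that were named after their values were seen had lower values in all ANKO libraries. None of these passed the edgeR test, while DESeq2 called all 4 and limma-voom called Rbp4 and Lrg1. Rbp4, the retinol carrier that adipocytes secrete, stood at 20.1 ± 7.37 CPM in ANKO and 124 ± 51.8 CPM in control tissue (SD, n = 3 each; edgeR adjusted p = 0.0544). Lrg1 stood at 41.6 ± 8.28 CPM in ANKO and 140 ± 56.5 CPM in control tissue (edgeR adjusted p = 0.0701). Haptoglobin, Hp, stood at 88.6 ± 5.59 CPM in ANKO and 200 ± 75.7 CPM in control tissue (edgeR adjusted p = 0.0968). Ceruloplasmin, Cp, stood at 109 ± 8.78 CPM in ANKO and 145 ± 7.87 CPM in control tissue (edgeR adjusted p = 0.0771). Itih4, named in the same way, was also lower in all ANKO libraries. It stood at 0.874 ± 0.343 CPM in ANKO and 2.91 ± 0.539 CPM in control tissue (edgeR adjusted p = 0.0616). Of the 24 tested genes of the list, 8 had ANKO values all below the control values and 4 all above. Those above, also named after their values were seen, were Ptx3, Hpx, Fgg and Orm2. They stood at 1.96, 3.79, 4.49 and 1.35 times the control level (edgeR adjusted p = 0.410, 0.331, 0.587 and 0.440). Over all features, 19.4% had groups apart in either direction.

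Mast cell markers, which are another source of cytokines in fat, rose in 4 of 6 tested genes, where 0.488% of all features rose. Over 8 markers the sums were 153 to 209 CPM in ANKO and 69.3 to 137 CPM in control tissue. Mcpt4, Cma1 and Tpsb2 had log2 fold changes of 1.43, 1.39 and 1.33 (edgeR adjusted p = 0.00717, 0.0133 and 0.0139). The call of Cma1 was lost without ANKO 3 or control 2 (adjusted p = 0.0640 and 0.0605) and that of Tpsb2 without ANKO 2 or control 2 (0.0553 and 0.0643). Of 12 T cell and B cell markers, 11 fibroblast, 11 endothelial and mural and 11 tested skeletal muscle markers, 0 passed the edgeR test, while 3, 4, 2 and 0 had an unadjusted p under 0.05. Over all features, 12.9% had such a p. DESeq2 called 0, 2, 0 and 0 of the listed markers and limma-voom 0 in each list.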
